A study of Mus musculus with 6 samples.

Results

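The 7 genes described here encode the Hedgehog ligand Sonic hedgehog (Shh), the ligand-binding receptors Ptch1 and Hhip, the signal transducer Smo and the 3 Gli transcription factors (Gli1, Gli2 and Gli3). They were chosen by symbol from the 31055 features of a single-cell RNA-seq matrix of sorted neoplastic lung cells, and all 7 were present. Cells were grouped by the UMIs (unique molecular identifiers, which count each captured transcript once) of other genes: the surfactant gene Sftpc, the alveolar type I gene Hopx, the keratins Krt8 and Krt18, and the collagens with Dcn. Both the genes and the classes were picked with earlier results of these data known, so the values below are descriptions.

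In the Hedgehog pathway an epithelial cell typically releases the ligand and a neighboring mesenchymal cell receives it. PTCH1 holds the transducer SMO inactive until ligand binds, after which SMO prevents the GLI proteins from being processed to repressors. Ptch1, Hhip and Gli1 are themselves induced by the pathway, and in the developing lung the airway epithelium makes SHH while the surrounding mesenchyme carries these target genes.

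The cells came from tumors of 6 mice, all carrying KrasLSL-G12D, Lkb1XTR/XTR and Rosa26LSL-tdTomato, with tumors initiated by intratracheal Lenti-Cre and grown for 20 weeks. XTR is an Lkb1 allele that Cre switches to a trapped state and that FLPo recombinase can repair. The 3 Restored mice also carried FLPo-ERT2 and received tamoxifen (4 mg doses) over 2 weeks. The 3 NonRestored mice were 1 without FLPo-ERT2 given tamoxifen, 1 without it given vehicle, and 1 with it given vehicle. The sort removed cells with CD45, CD31, F4/80 or Ter119 and dead cells. The study describes the sorted cells as positive for tdTomato, the fluorescent reporter that Cre switches on. The deposited matrix pools the mice, cells were not assigned to mice here, and the comparison of Restored with NonRestored mice was not analysed here. The pooled matrix was therefore 1 sample without replicates. All 95% intervals cover counting error only, and a difference between cell classes and a difference between the mice that supplied them cannot be told apart.

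Of 16017 cells, 12183 had at least 500 genes and at most 20% mitochondrial UMIs, with a median of 19348 UMIs. Cells with Sftpc at 500 or more UMIs per 10000 and Hopx under 2 (Sftpc-high, Hopx-low) numbered 7059. A further 1181 cells were Sftpc-high with Hopx 2 to 15, 1083 were Hopx-high (15 or more) and 1181 were keratin-high (Krt8 and Krt18 together 50 or more). These 4 tumor cell classes overlapped in part, by at most 127 cells per pair, and together held 10233 cells. Fibroblasts, with at least 10 UMIs from Col1a1, Col1a2, Col3a1 and Dcn, numbered 236. Endothelial cells (101) and immune cells (75), called from their own marker UMIs, served as cells that should lack Shh. Markers were checked for the Hopx-high, keratin-high and fibroblast classes. All 12 alveolar type I markers were at least 2-fold higher in Hopx-high than in Sftpc-high, Hopx-low cells, beside 13.8% of all genes. All 8 transitional-cell markers were so in keratin-high cells over the same reference, beside 15.9%. All 10 fibroblast markers were so in fibroblasts against tumor cells, beside 23.8%. Over Sftpc-high, Hopx-low cells, 7 of 8 transitional markers were also 2-fold higher in Hopx-high cells and 9 of 12 alveolar type I markers in keratin-high cells. Hopx, Krt8, Krt18 and the 4 fibroblast genes of the rules are among those markers. The tumor reporter TdTomato was at 7173 UMIs per 1000000 (CPM) in the tumor cell classes and at 183 CPM in the 212 fibroblasts without an Epcam UMI. With every cell reduced at random to 5000 UMIs (thinned), 53.3% of fibroblasts and 99.9% of tumor cells had a TdTomato UMI.

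Hhip and Ptch1 were the members with the most UMIs in fibroblasts, and their promoter windows are shown because both are textbook Hedgehog targets that were high in the same cells. Each window holds the 250 bases before the RefSeq start site on the minus strand of GRCm38.p6 (RefSeq), with CG dinucleotides in capitals.
Hhip, chr8:80058009-80058258: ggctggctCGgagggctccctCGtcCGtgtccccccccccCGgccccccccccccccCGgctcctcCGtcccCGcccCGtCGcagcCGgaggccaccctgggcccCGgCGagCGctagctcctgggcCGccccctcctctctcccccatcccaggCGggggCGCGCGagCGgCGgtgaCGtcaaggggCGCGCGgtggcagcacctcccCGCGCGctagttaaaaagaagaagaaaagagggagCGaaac
Ptch1, chr13:63565736-63565985: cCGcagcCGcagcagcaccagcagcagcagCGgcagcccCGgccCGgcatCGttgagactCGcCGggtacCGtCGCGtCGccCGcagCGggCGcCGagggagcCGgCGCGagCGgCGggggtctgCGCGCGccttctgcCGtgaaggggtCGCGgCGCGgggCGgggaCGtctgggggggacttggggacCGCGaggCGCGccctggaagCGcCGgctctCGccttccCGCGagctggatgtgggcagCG
The Hhip window held 28 CG dinucleotides and the Ptch1 window 41, against a median of 6 over 32851 windows of this length. A count at least as high was found in 7.61% and 1.09% of windows, respectively. The Ptch1 window lies within the longer gene span of GENCODE release M21, 7613 bases from its 5′ end. The letters GACCACCCA, the core of the motif bound by GLI proteins, were searched on both strands. They occurred in 0.225% of all windows, and with 1 mismatch allowed in 5.79%, and in none of the windows of the 5 members with an entry (Ptch1, Hhip, Smo, Gli2 and Gli3). This says only that these letters are not in these windows.

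Shh, the ligand (ENSMUSG00000002633, chromosome 5: 28456815 to 28467256, minus strand, GRCm38), was a gene of the tumor cells. Its level was 40.1 CPM in Sftpc-high, Hopx-low cells (39.2 to 41.1; 6578 UMIs). It was 88.7 CPM (85.1 to 92.4) in Sftpc-high cells with Hopx 2 to 15 and 109 CPM (104 to 114) in Hopx-high cells. Keratin-high cells had 45.8 CPM (43.4 to 48.2). The order was therefore Hopx-high, Hopx 2 to 15, keratin-high, and Sftpc-high Hopx-low, with no overlap of counting intervals between neighbors. Fibroblasts (9.07 CPM; 39 UMIs), endothelial cells (4.44 CPM; 7 UMIs) and immune cells (2.67 CPM; 5 UMIs) came last, and their intervals overlapped from each to the next. Of the 13434 Shh UMIs, 86.3% fell in the tumor cell classes and 13.3% in the 1547 cells of no class, whose level was 90.2 CPM.

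**Figure D1:**
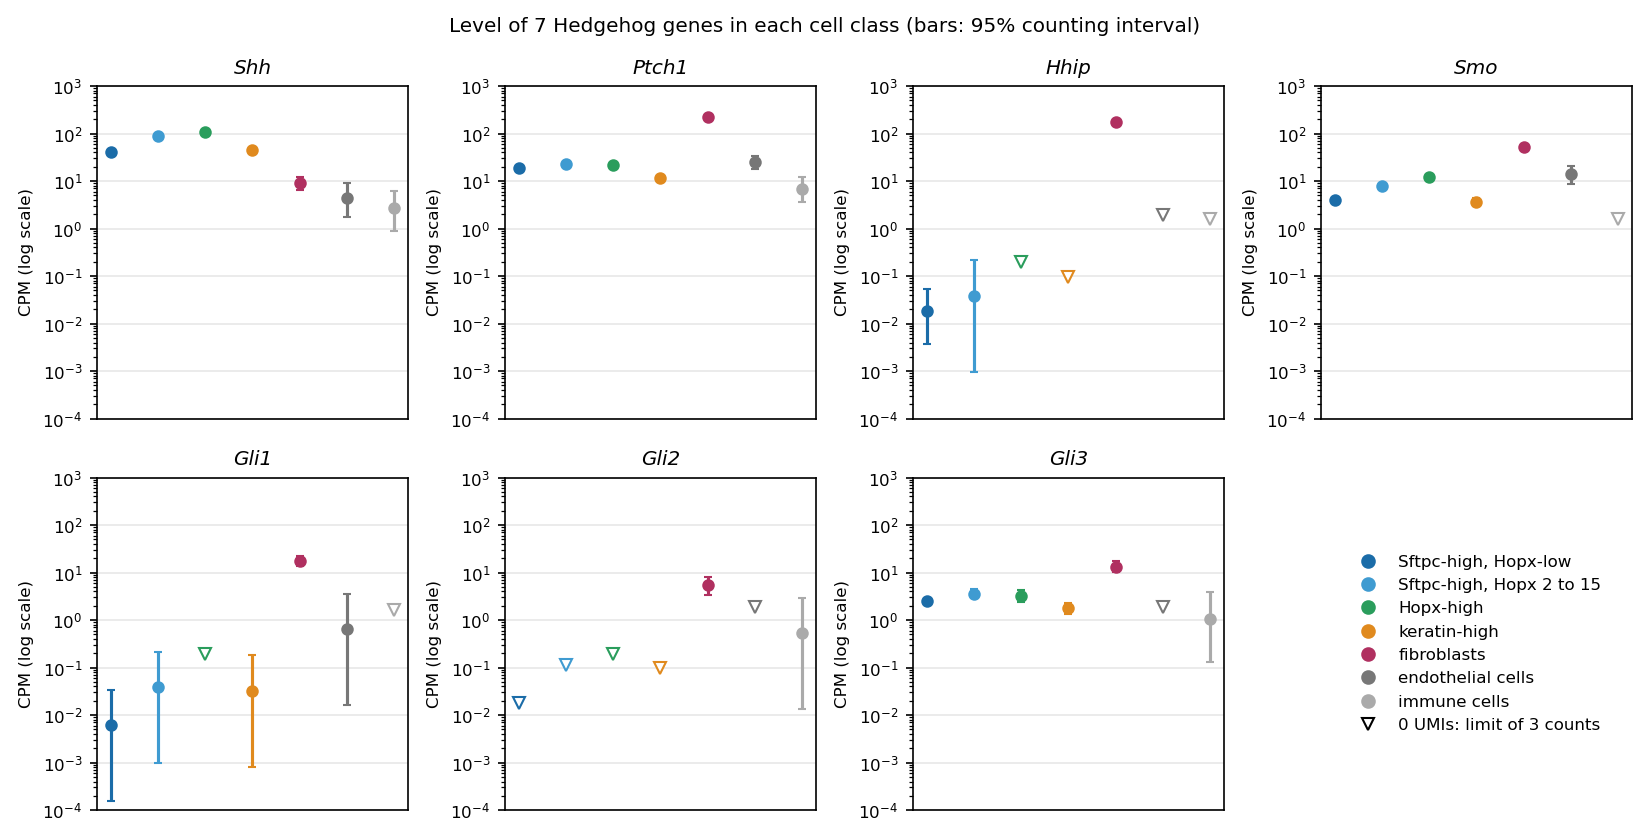
Levels of the 7 genes in CPM on a log axis, by cell class, with 95% counting intervals. Open triangles mark classes with 0 UMIs at the limit that 3 counts allow. Shh is highest in the tumor cell classes and the other 6 genes in fibroblasts, at 225 CPM for Ptch1 and 177 CPM for Hhip.

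Relative to Sftpc-high, Hopx-low cells, Shh was 2.72-fold higher in Hopx-high cells (2.57 to 2.87) and 2.21-fold higher in cells with Hopx 2 to 15 (2.11 to 2.32). The median of all genes tested (at least 30 UMIs over both classes) moved by 0.33 and 0.12 on the log2 scale in the same comparisons, beside 1.44 and 1.14 for Shh. At a threshold of 2-fold, 13.8% of genes were higher and 9.88% lower in Hopx-high cells, and 4.25% were higher and 3.36% lower in cells with Hopx 2 to 15. Of the 4 members with enough UMIs (Shh, Ptch1, Smo and Gli3), 2 were past 2-fold in Hopx-high cells, Shh and Smo, and only Shh was in cells with Hopx 2 to 15. Neither comparison had a member 2-fold lower. The keratin-high class did not stand apart for Shh: the ratio was 1.14 (1.08 to 1.21), 0.923 (0.871 to 0.978) when the 10 most abundant genes were left out of the totals, and 0.998 (0.868 to 1.14) after thinning to equal depth. There 15.9% of genes were 2-fold higher and 8.45% lower, and none of the 4 members was. Directly compared, Hopx-high cells had 2.38-fold more Shh than keratin-high cells (2.22 to 2.56). Shh and Smo were past 2-fold there, beside 4.96% of all genes that were higher and 8.6% that were lower, and the all-gene median was level. Hopx-high over Hopx 2 to 15 gave 1.23 for Shh (1.15 to 1.31), with no member past 2-fold in either direction, where 5.28% of genes were higher and 5.21% lower.

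Along Hopx, Shh rose in each range of Sftpc from the lowest bin to a highest bin, but not at every step. In cells with Sftpc at 500 or more, it went from 37.8 CPM (36.8 to 38.8) at Hopx under 1 to 75.2 CPM (71.0 to 79.6) at 2 to 5 and 110 CPM (103 to 118) at 5 to 10. From 5 upward the bins ranged up to 115 CPM and did not differ beyond their intervals, and the top bin (72.3 CPM) held only 14 cells. Cells with Sftpc at 100 to 500 began higher, at 75.8 CPM (69.7 to 82.3; 622 cells) with Hopx under 1. With Hopx at 10 to 15 they had the highest level of any bin, 156 CPM (135 to 180; 78 cells), followed by 149, 116 and 94.2 CPM (59.7 to 141) in the bins above it. At Sftpc under 100, Shh began at 37.7 CPM (34.2 to 41.5) and was 34.2 CPM (29.1 to 39.8) at Hopx 1 to 2. It peaked at 109 CPM (95.7 to 123) with Hopx at 30 to 60 and was 74.9 CPM (60.1 to 92.2; 115 cells) at 60 or more, with no overlap of these last 2 intervals. The Hopx bins were set after values had been seen.

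**Figure D2:**
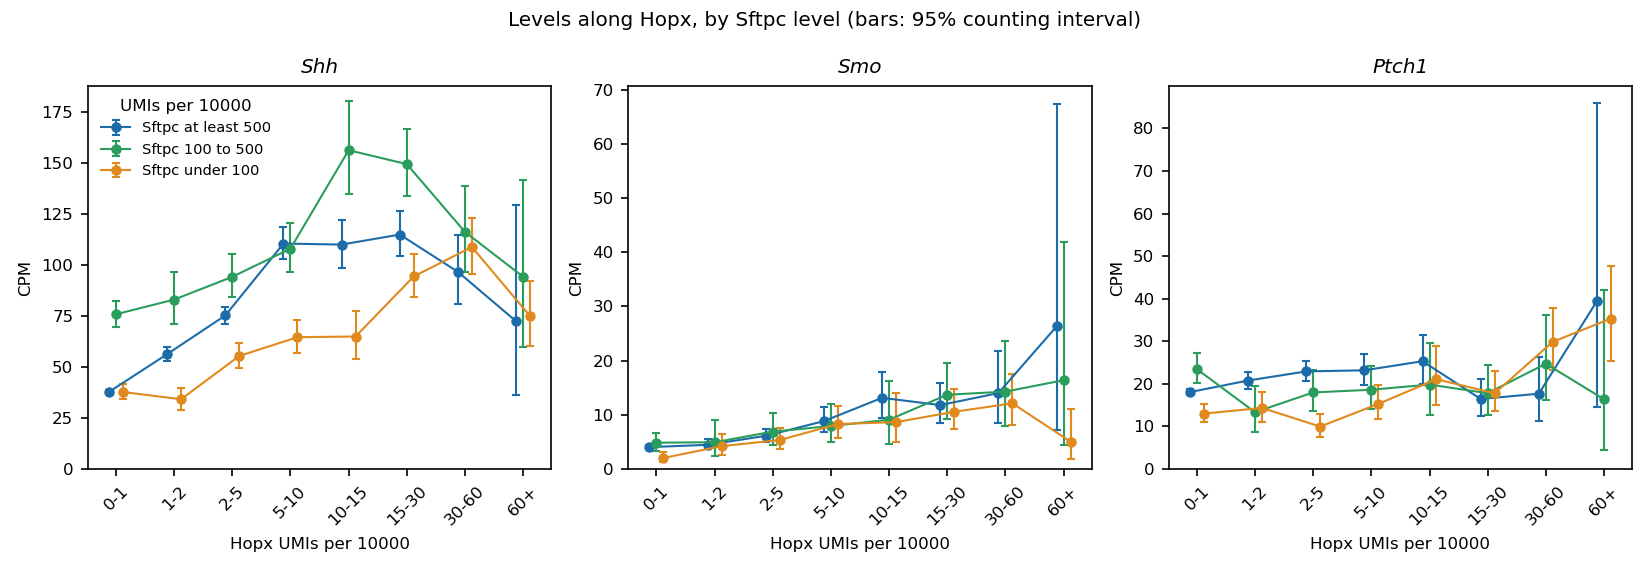
Shh, Smo and Ptch1 in CPM against Hopx UMIs per 10000, in cells with Sftpc at 500 or more, 100 to 500 and under 100 UMIs per 10000; bars are 95% counting intervals. Shh climbs from 37.8 to 110 CPM between the lowest Hopx bin and the bin at 5 to 10 in the cells richest in Sftpc.

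Cells just outside and just inside the limits of the rules had the following levels. Shh was 106 CPM at Hopx 10 to 15 and 122 CPM at Hopx 15 to 20, the latter above the level of the whole Hopx-high class. It was 67.2 CPM where the keratins summed to 40 to 50 and 58.5 CPM at 50 to 60. Among Hopx-low cells it was 83.2 CPM with Sftpc at 400 to 500 and 62.2 CPM at 500 to 600. Inside the keratin-high class Shh followed Hopx too, at 34.3 CPM (31.6 to 37.1) with Hopx under 2, 60.0 CPM (55.5 to 64.9) at 2 to 15 and 70.7 CPM (59.9 to 82.9) at 15 or more, the last 2 overlapping.

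Most tumor cells held few Shh transcripts. In thinned cells, 18.4% of Sftpc-high, Hopx-low cells had a Shh UMI (17.5 to 19.3), 34.7% of cells with Hopx 2 to 15, 38.7% of Hopx-high cells and 17.7% of keratin-high cells. The share was 1.41% in immune cells and 1.23% in endothelial cells, 1 cell of each. Before thinning, the shares were 48.8%, 68.5%, 58.3% and 46.2% in the tumor classes at median depths of 21700, 20458, 12374 and 23490 UMIs, beside 2.67% of immune cells at 24668 UMIs and 3.96% of endothelial cells at 12521. Of the 10233 tumor cells, 9756 were deep enough to be thinned. The thinned counts were slightly more variable than a Poisson draw, with a variance 1.21 times the mean in Sftpc-high, Hopx-low cells and 1.33 times in Hopx-high cells. In the former, 81.6% of cells were at 0 where a Poisson with the same mean gives 80.2%.

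Free tumor RNA in the suspension was gauged from Sftpc and from TdTomato, which gave different values. The TdTomato level was 34.1% of the tumor level in immune cells, 12.8% in endothelial cells and 15.1% in fibroblasts. Immune cells held Sftpc at 7.67% of the tumor level and Shh at 5.30%. Endothelial cells held 5.27% and 8.79%. Fibroblasts held Sftpc at 4.90% and Shh at 18.0%, and this Shh lay in few cells: 36 of its 39 UMIs were in the 24 fibroblasts with an Epcam UMI (a marker of epithelium), whose Sftpc was 32030 CPM. In the 212 fibroblasts without Epcam, Shh was 0.836 CPM (0.172 to 2.44; 3 UMIs). The 24 cells with both kinds of marker also had more UMIs, a median of 26420 against 15808.

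Ptch1, the receptor and pathway target (ENSMUSG00000021466, chromosome 13: 63508328 to 63573598, minus strand), was present in both compartments. Fibroblasts had 225 CPM (211 to 240), 12.2-fold the 18.4 CPM of the tumor cell classes together (ratio 11.4 to 13.1). Sftpc-high, Hopx-low cells had 18.4 CPM, cells with Hopx 2 to 15 had 23.3, Hopx-high cells 21.2 and keratin-high cells 11.7 (10.5 to 12.9). Endothelial cells, at 24.7 CPM (17.6 to 33.8), overlapped all tumor classes but keratin-high. Keratin-high cells were the lowest tumor class, 1.58-fold under Sftpc-high, Hopx-low cells (1.41 to 1.77). The interval of Hopx-high cells overlapped those of both Sftpc-high classes, although the ratio over Hopx-low cells was 1.15 (1.03 to 1.29). Along Hopx, Ptch1 lay between 16.4 CPM (Hopx 15 to 30) and 25.3 CPM (Hopx 10 to 15) in the Sftpc-richest cells. The top bin of 14 cells, with 6 UMIs, is left out of that range. At Sftpc 100 to 500, Ptch1 lay between 13.33 CPM (Hopx 1 to 2) and 24.73 CPM (Hopx 30 to 60). At Sftpc under 100 Ptch1 did rise, though not at every step, from 13.01 CPM (10.99 to 15.29) at Hopx under 1. It was 29.88 CPM (23.24 to 37.81) at 30 to 60 and 35.34 CPM (25.47 to 47.77) at 60 or more. After thinning, 50.8% of fibroblasts had a Ptch1 UMI (43.6 to 57.9) against 9.11% of tumor cells (8.55 to 9.70) and 4.23% of immune cells (0.880 to 11.9). The unthinned shares were 75.4%, 30.4% and 16.0%. The immune level was 6.95 CPM (3.70 to 11.9), below the intervals of the Sftpc-high and Hopx-high classes and overlapping that of keratin-high cells.

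Hhip, a membrane protein that binds and sequesters the ligand (ENSMUSG00000064325, chromosome 8: 79965851 to 80058006, minus strand), was a fibroblast gene. Of 766 UMIs in all cells kept, 760 (99.2%) fell in the 236 fibroblasts, at 177 CPM (164 to 190). The tumor cell classes held 4 UMIs among 10233 cells, all in Sftpc-high cells, and Hopx-high and keratin-high cells held 0, which allows up to 0.194 and 0.0980 CPM. The ratio of fibroblasts over tumor cells was 10150 (3949 to 37350). It was 1400 (968 to 2110) when cells that met both a fibroblast and a tumor rule were also left in the tumor classes, which then held 29 Hhip UMIs. Hhip appeared in 52.5% of fibroblasts before and 40.6% after thinning, and in 0 endothelial or immune cells.

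Smo, the transducer (ENSMUSG00000001761, chromosome 6: 29735503 to 29761365, plus strand), reached 53.0 CPM in fibroblasts (46.4 to 60.4), 10.8-fold the tumor level of 4.90 CPM (ratio 9.33 to 12.5). Among tumor classes it was 4.09 CPM in Sftpc-high, Hopx-low cells, 7.68 with Hopx 2 to 15, 11.9 in Hopx-high and 3.56 in keratin-high cells. The Hopx-high level was 2.91-fold that of Sftpc-high, Hopx-low cells (2.46 to 3.43), and the intervals of the keratin-high and Hopx-low classes overlapped. Smo was 0 in immune cells, which allows 1.60 CPM, and 13.9 CPM in endothelial cells (8.74 to 21.1), overlapping Hopx-high cells. After thinning, 6.80% of Hopx-high cells had a Smo UMI (5.29 to 8.58), against 0 of 71 immune cells, which allows up to 4.23%, and 14.5% before thinning.

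The Gli genes separated into a pair confined almost wholly to fibroblasts and one shared with tumor cells. Gli1, the transcriptional activator that is itself a target (ENSMUSG00000025407, chromosome 10: 127329882 to 127341974, minus strand), had 76 of its 80 UMIs in fibroblasts (17.7 CPM, 13.9 to 22.1). The tumor cell classes had 3 Gli1 UMIs, 1 in each class except Hopx-high, and the ratio was 1354 (446 to 6709). Gli2, the main activator in many tissues (ENSMUSG00000048402, chromosome 1: 118834132 to 119053619, minus strand), had 23 UMIs in fibroblasts (5.35 CPM, 3.39 to 8.02) and 0 in 10233 tumor cells, which allows 0.0131 CPM. The fibroblast level was 410-fold that limit of 3 counts, and the exact lower limit of the ratio was 307. Gli3, the main repressor (ENSMUSG00000021318, chromosome 13: 15463235 to 15730026, plus strand), was 13.2 CPM in fibroblasts (10.0 to 17.2) and 2.59 CPM in tumor cells (2.38 to 2.81), a ratio of 5.12 (3.83 to 6.72). Its tumor classes ranged from 1.80 CPM in keratin-high to 3.61 CPM with Hopx 2 to 15. In that order each class overlapped its neighbor, but the interval with Hopx 2 to 15 (2.92 to 4.42) lay above that of Hopx-low cells (2.31 to 2.81). Gli3 had 2 UMIs in immune cells and 0 in endothelial cells, which allows 1.90 CPM.

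In the comparison of fibroblasts with tumor cells, 23.8% of 14850 genes were at least 2-fold higher and 15.1% at least 2-fold lower. Of the 6 members with enough UMIs, 5 were higher and Shh was lower, by 5.57-fold (4.07 to 7.83). In the fibroblasts without Epcam, which held 3 of the 39 Shh UMIs, Shh was at 1.66% of the tumor level. The median log2 ratio of these 6 was 3.53 and that of all genes tested 0.22. Hhip and Gli1 reached the minimum of 30 UMIs only through fibroblasts, and Gli2, with 23 UMIs, was not counted. The members chosen are known Hedgehog genes whose pattern was in view, so their count is no independent evidence. Fibroblasts are a mixed class: all 5 endothelial markers were 2-fold higher than in tumor cells, with Cdh5 at 13.9 CPM beside 771 CPM in endothelial cells, whose own levels were 0 for Hhip and 0.634 CPM for Gli1. Its part in the result was not tested.

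The same cells often carried several members. Of 236 fibroblasts, 178 had a Ptch1 UMI and 124 a Hhip UMI, and 108 had both. A Gli1 UMI was present in 56 fibroblasts, of which 53 also had Ptch1. In total 197 fibroblasts had at least 1 of the 3 and 37 had all 3. Fibroblasts with Hhip were deeper than those without, with medians of 17790 and 13404 UMIs. In tumor cells none of the 4 cells with Hhip or the 3 cells with Gli1 had a Ptch1 UMI, although 3109 of 10233 had one. Shh and Ptch1 were found together in 1820 tumor cells, of 5278 with Shh. Thinned Ptch1 and Hhip counts were uneven among fibroblasts, with a variance 2.92 and 2.68 times the mean, and 20 of 197 fibroblasts held 44.8% of the thinned Ptch1 UMIs.

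Fibroblasts without Epcam were divided by the marker list that gave them most UMIs. Ptch1 was 235 CPM in the 45 cells of the alveolar fibroblast list, 201 CPM in the 51 of the adventitial list and 258 CPM in the 100 of the myofibroblast and smooth muscle list (236 to 282), whose interval lay just above the adventitial one (170 to 235). Hhip was 208, 209 and 177 CPM in the same order, and Smo 60.7, 47.5 and 57.3 CPM. For Hhip and Smo all 3 intervals overlapped. Gli1 was 7.75 CPM (2.84 to 16.9) in the alveolar group beside 21.1 and 22.1 CPM (15.9 to 29.9) in the others, with overlapping intervals. The co-receptor Gas1 and the target Foxf1 did differ: Gas1 was 121 CPM in the alveolar group and 15.3 CPM in the myofibroblast group, and Foxf1 was 51.6 and 135 CPM. A further 14 cells of the pericyte list and 2 of the mesothelial list were too few to rank.

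**Figure D3:**
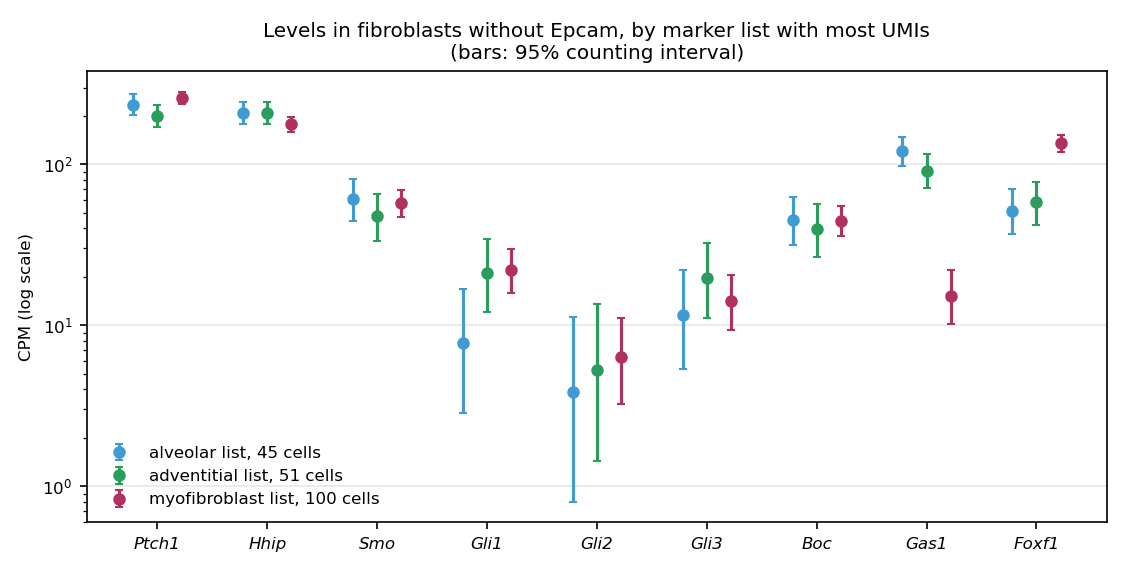
Levels of 6 members, the co-receptors Boc and Gas1 and the target Foxf1 in fibroblasts without an Epcam UMI, in CPM on a log axis, by the marker list with most UMIs; bars are 95% counting intervals. Hhip and Smo overlap across the groups, while Gas1 falls from 121 to 15.3 CPM from the alveolar to the myofibroblast group.

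When fibroblasts without Epcam and with at least 5000 UMIs were divided at the median Ptch1 level, the 86 cells above it had higher levels of several targets than the 87 below. Gli1 was 3.76-fold higher (2.14 to 6.93), Hhip 2.13-fold (1.81 to 2.51) and Foxf1 1.94-fold (1.56 to 2.42). Smo, upstream of these targets, had a ratio of 1.15 (0.862 to 1.54). Gas1 was lower, at 44.9 against 69.9 CPM (ratio 0.473 to 0.863), and Boc had a ratio of 1.04. Of 794 genes at 200 CPM or more, 14 were 2-fold higher and 16 lower. Gli1, Foxf1, Smo, Gas1 and Boc were under 200 CPM in both groups, so these counts do not cover them. The tumor cell genes Sftpc and Lyz2 were higher as well, at 1627 against 708 CPM (2.30-fold) and 108 against 69.4 CPM (1.55-fold), and their part in the result was not tested. The highest ratio was that of Msln, a mesothelial marker, with 378 UMIs against 0, and the lowest that of Rgs5, a pericyte marker, with 0 against 443, although the 14 cells of the pericyte list had Ptch1 at 287 CPM (191 to 416). The genes next in order included Ibsp, encoding a bone matrix sialoprotein, at 5894 against 380 CPM, and Htra1, a secreted protease, at 1308 against 310 CPM. On the low side were Spp1, encoding osteopontin, at 33.3 against 3761 CPM, and Pi16, a marker of adventitial fibroblasts, at 6.41 against 494 CPM. Of the 982 Pi16 UMIs in all fibroblasts, 652 were in a single cell. These genes were among the 8 with the largest ratio in each direction and were chosen after their values were seen.

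The other genes of the pathway were compared in the same way. Of 34 further Hedgehog genes in the matrix, 33 had enough UMIs, and 20 were at least 2-fold higher in fibroblasts and 1 lower, with a median log2 ratio of 1.91 beside 0.22 for all genes, of which 23.8% were higher and 15.1% lower. Scube1, Scube3, Boc, Gas1, Evc, Evc2, Foxf2 and Foxl1 reached the minimum of 30 UMIs only through fibroblasts and so had to differ, and the count and median are no support for a pattern of the list. These calls add 0.5 UMI to each side, which decides 2 genes: Ihh counts as higher on 1 fibroblast UMI (ratio 1.53, 0.0376 to 9.08), and Disp1 does not count as lower. Among receptors and co-receptors, Gas1 was 52.3 CPM in fibroblasts with 2 UMIs in tumor cells, and Boc was 39.8 CPM with 3. Cdon, the third co-receptor, was 8.60 against 1.54 CPM, and the endocytic receptor Lrp2 was lower, at 14.2 against 114 CPM. Among genes for release of the ligand, Scube1, a secreted protein of the family that helps free it, was 152 CPM in fibroblasts with 6 UMIs in tumor cells. Disp1, the transporter that exports ligand from producing cells, was 3.47 CPM in tumor cells and 1.63 CPM in fibroblasts (ratio 0.469, 0.188 to 0.971). The ciliary proteins Evc and Evc2, which act with SMO, had 62 and 81 UMIs in fibroblasts and 2 and 0 in tumor cells. The negative regulator Sufu was similar in level in both, at 8.14 and 7.24 CPM (ratio 0.780 to 1.57).

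**Figure D4:**
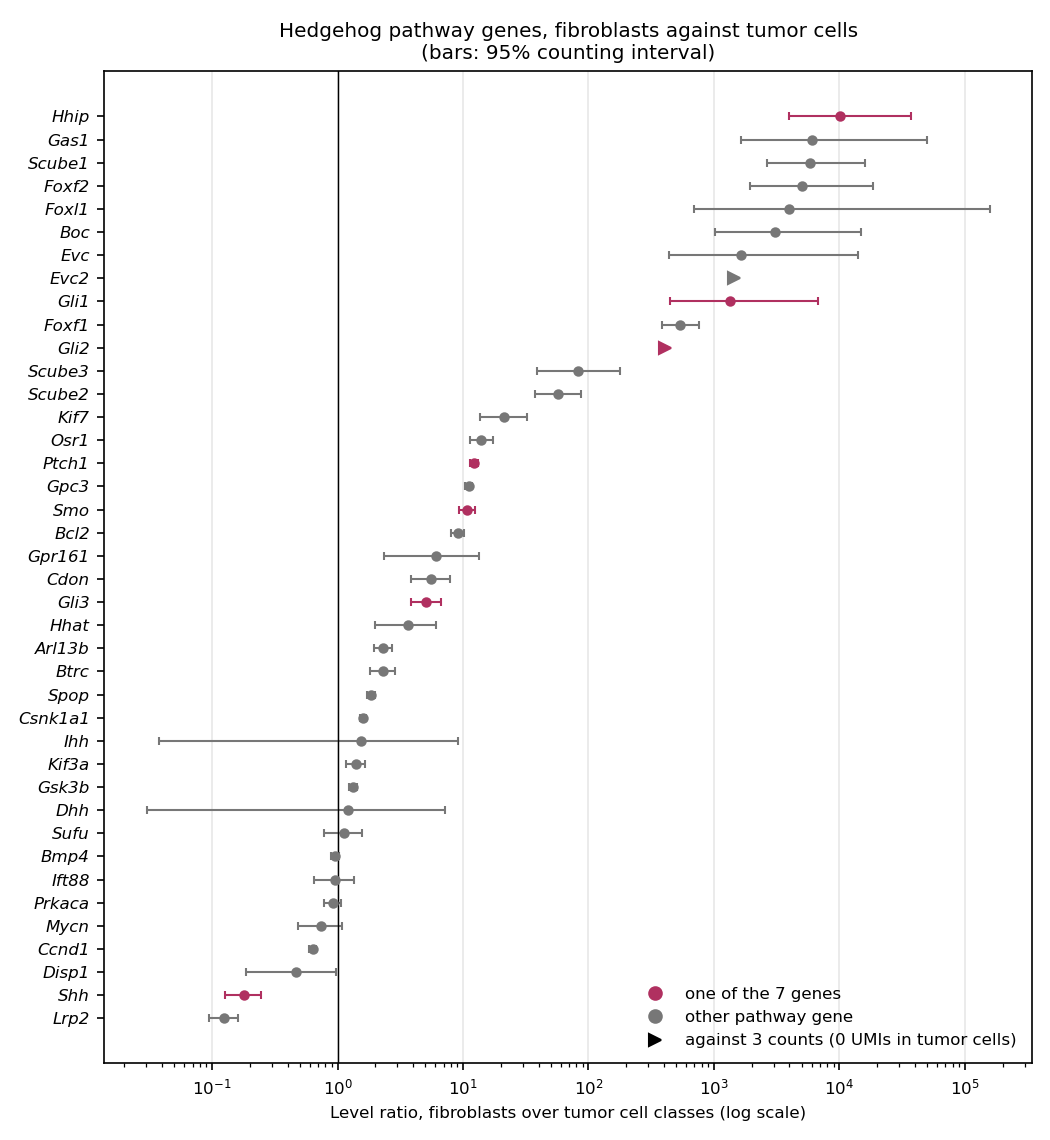
Ratio of the level in fibroblasts over the tumor cell classes on a log axis for the 7 genes (red) and the 33 other Hedgehog genes with enough UMIs (grey), with 95% counting intervals; arrows are ratios against the limit of 3 counts where tumor cells had 0 UMIs. Hhip has the highest point value at 10150, with an interval that overlaps those of Gas1, Scube1, Foxf2, Foxl1, Boc, Evc and Gli1. The Hhip interval also overlaps those of Evc2 and Gli2, which have no upper limit. Shh, at 0.180 with 36 of its 39 fibroblast UMIs in cells with Epcam, and Lrp2 lie at the other end.

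Of 8 listed target genes, 5 were 2-fold higher in fibroblasts, beside 23.8% of all genes. Foxf1, Foxf2 and Foxl1, mesenchymal forkhead factors, were 90.9, 87.2 and 17.2 CPM there, with 39, 4 and 1 UMIs in tumor cells. Foxf2 and Foxl1 reached the UMI minimum only through fibroblasts and so had to differ. Foxf1 was higher still in endothelial cells, at 390 CPM. Osr1 and the survival gene Bcl2 were 14.0-fold and 9.08-fold higher. Bmp4, Mycn and Ccnd1, which other pathways also drive, were not: Bmp4 was 192 against 201 CPM (ratio 0.887 to 1.02). Within the tumor cells, Bmp4 was 2.12-fold and Mycn 4.94-fold higher in Hopx-high than in Sftpc-high, Hopx-low cells. In that comparison 8 of 24 pathway genes were 2-fold higher and 1, Lrp2, lower, beside 13.8% and 9.88% of all genes. The median log2 ratio of the 24 was 0.43, beside 0.33 for all genes. Ihh, Scube2 and Foxf1, among the 8, had 6, 10 and 8 UMIs in Hopx-high cells. These 3 genes reached the UMI minimum only through those cells, and the interval of the Ihh ratio (0.885 to 6.65) included 1. Gpr161, with 2 against 47 UMIs, had a ratio of 0.451 (0.0530 to 1.72) and is not called once 0.5 UMI is added. The other ligands were rare in tumor cells, with 35 UMIs of Ihh and 44 of Dhh. Of the latter, 29 were in keratin-high cells, at 0.947 CPM, 11.9-fold the level in Sftpc-high, Hopx-low cells (6.02 to 25.03). Dhh was 13.9 CPM in endothelial cells.

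The genes with profiles most like Shh over the 7 classes, by the distance between class shares, were Gm26894, Scnn1a, Tmem37, Sema4f and Irx2, with distances of 0.049 to 0.076 (0 for identical profiles). Gm26894 is a lincRNA that overlaps the 5′ end of Shh on the opposite strand, at 16.7 CPM in Sftpc-high, Hopx-low and 35.9 CPM in Hopx-high cells. Scnn1a, a subunit of the epithelial sodium channel, went from 70.1 to 214 CPM. The 5 genes most like Hhip were Loxl1, Islr, Mark1, Vstm4 and Kcne4, with Loxl1, a lysyl oxidase of elastic fibers, at 259 CPM in fibroblasts. Those most like Gli1 were Gas1, Adamts12, C1qtnf2, Tnfsf18 and Heyl.

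Within the largest class, Shh marked a difference between cells. Of Sftpc-high, Hopx-low cells with at least 10000 UMIs, 762 had Shh at 1 or more per 10000 and 2860 had none. S100a6, a calcium-binding protein, was 591 against 229 CPM in these groups (2.58-fold, 2.52 to 2.65), and Cavin3, a component of caveolae, was 79.3 against 28.9 CPM. Lyz2, a lysozyme of alveolar type II cells, was 7044 against 15860 CPM, 2.25-fold lower, and the stress gene Nupr1 was 303 against 719 CPM. Hopx, although under 2 per 10000 in all these cells, was also higher, at 50.8 against 31.9 CPM (1.59-fold, 1.47 to 1.72). Among 2666 genes at 50 CPM or more, 7 were 2-fold higher and 10 were 2-fold lower. Ptch1 was nearly level, at 20.0 against 17.3 CPM (ratio 1.02 to 1.31), Smo was 1.61-fold (1.27 to 2.04) and Gli3 2.06-fold higher (1.53 to 2.75). Ptch1, Smo and Gli3 were under 50 CPM in both groups, so the counts over 2666 genes do not cover them. The named genes were among the 8 with the largest ratio in each direction, apart from Hopx and the members, and the split was made after values had been seen.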

How the data were processed

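Sorted neoplastic cells of 6 mice were profiled by 10x 3′ single-cell RNA-seq. The authors used Cell Ranger 3.0.2 and the mm10 build. The deposited values were counts, whole UMIs per gene and cell, with no normalization. The gene annotation release is not given in the sources used here. The study's methods describe removing stromal clusters, but the deposited matrix still held such cells. No column of per-sample values went unused (0).

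The members, lists and classes were chosen with earlier results of these data known. Named genes were the 7 members, a list of other Hedgehog genes, the 5 nearest profiles to Shh, Hhip and Gli1 (at least 100 UMIs, highest level within 4-fold), and cell markers; exceptions are stated. Levels were UMIs per 1000000 summed over a class, with exact Poisson intervals; ratios had exact conditional binomial and shares exact Clopper-Pearson intervals, all at 95%. At 0 UMIs the limit was 3 counts. Fold calls needed 30 UMIs, with 0.5 added. A cell under the fibroblast rule was counted there only. Thinning to 5000 UMIs used seed 42. No doublet caller was run; cells above the 98th percentile of gene number were left out as an alternative, and fibroblasts were split by Epcam. Barcodes shared between libraries were not counted here. Coordinates came from GENCODE M21, whose IDs matched 31011 of 31055 features, and promoters from RefSeq. A listed pathway gene is not reported here. The fold script was tested on simulated data. Computation used scipy 1.17.1 with numpy 2.4.6 for intervals, pandas 2.3.3 for tables and matplotlib 3.10.9 for plots, under Python 3.11.15.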

Additional observations from a re-analysis of the deposited data

How the results depend on the processing

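With 1 pooled sample, no replicate could be left out and no result has a test. No paired analysis was possible because the labels give no shared replicate numbers and cells were not assigned to mice. Each of 9 ratios was recomputed under 18 alternatives. Some alternatives did not touch the cells of a ratio, so its value could not move. The keratin limits, for example, left the Shh ratio of Hopx-high cells at its main counts of 1688 and 6578 UMIs. Such values are counted as within the interval. Of 161 values, 136 stayed within the main 95% interval, 22 lay outside it with the same direction and 3 changed direction. All 3 were the Shh ratio of keratin-high over Sftpc-high, Hopx-low cells, which was 0.998 after thinning, 0.923 without the 10 most abundant genes and 0.942 with the keratins at 100 or more. It was 1.49 with the keratins at 30 or more, 1.05 in cells that met exactly one rule, 1.24 with Sftpc at 1000 or more and 1.23 with no Hopx UMI in the Hopx-low class. The Hopx-high ratio of Shh was 2.40 as a mean over cells, 2.57 thinned, 2.36 without the 10 most abundant genes, 2.88 under exactly one rule, 2.94 with Sftpc at 1000 or more, 2.93 with no Hopx UMI and 2.48 with Hopx at 30 or more. The Hopx 2 to 15 ratio was 2.08 as a mean over cells, 2.05 with Sftpc at 1000 or more and 2.38 with no Hopx UMI. For fibroblasts over tumor cells, thinning gave 13.4 for Ptch1, 7.63 for Smo and 132 for Gli2 against the limit of 3 counts. Leaving out the 10 most abundant genes gave 9.98 for Ptch1 and 8.81 for Smo. Fibroblasts without Epcam and with Sftpc under 500 gave 13.4 for Ptch1. Hhip was 1400 when fibroblasts stayed in the tumor classes, since their UMIs then counted on both sides, and Gli2 269 against that limit with no Hopx UMI, since fewer tumor cells remained. Gli2 had no mean over cells, with 0 UMIs in tumor cells. The other causes were not tested. Depth limits Gli1 and Gli2, with 80 and 24 UMIs in all cells.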
